A study of Mus musculus with 3 samples.

Results

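Members of the grainyhead/CP2 and AP-2 families of transcription factors were followed in mpkDCT4a cells, an immortalised mouse line labelled as distal convoluted tubule (DCT). The 10 genes are the CP2 subfamily (Tfcp2l1, Tfcp2 and Ubp1), the grainyhead subfamily (Grhl1, Grhl2 and Grhl3) and the AP-2 genes Tfap2a, Tfap2b, Tfap2c and Tfap2e. They were taken by symbol from the 55487 genes of the table, and all 10 had an entry. The series holds 3 libraries of 1 group, wild-type cells with no treatment named beyond their medium, so levels are described and no conditions are compared. The cells of every library were kept at 37 °C. The medium of every library contained serum (2%), insulin (5 µg/ml), transferrin (5 µg/ml), glucose (20 mM), dexamethasone (50 nM), triiodothyronine (1 nM) and epidermal growth factor (10 ng/ml).

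Grainyhead and CP2 proteins share a DNA-binding domain with an immunoglobulin-like fold, but bind DNA as dimers and tetramers within their own branch. Grainyhead factors maintain epithelial junction and barrier genes. Among the CP2 factors, Tfcp2 and Ubp1 are broadly expressed, whereas Tfcp2l1 is known from the collecting duct and other distal nephron epithelium and from naive pluripotent stem cells. AP-2 factors are a separate family that binds GC-rich palindromes as dimers, with Tfap2a and Tfap2b known from the developing neural crest, skin and distal nephron.

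The libraries held 436983 to 482418 counts, so that 1 count was worth 2.07 to 2.31 CPM, the level scaled to library size. Whether these counts stand for all reads of a library is not stated in the sources used, so the limits below are those of the deposited counts. A gene is called detected where its mean level reached 1 CPM, as it did for 12473 genes, or 22.5% of all and 50.6% of the 21974 protein-coding ones. For a gene with 0 counts in all libraries, 3 counts of the summed total allow a level of up to 2.20 CPM. That limit is above the threshold, so a gene not called detected may still lie above 1 CPM. Of 12 DCT markers 5 were detected: Wnk4 (61 counts over the libraries), Cnnm2 (27), Trpm6 (12), Kcnj10 (9) and Egf (3). The defining cotransporter gene Slc12a3 had 0 counts, as did Pvalb, Klhl3, Calb1, Emx1, Sall3 and Tmem52b. None of the 6 principal cell, 5 intercalated cell and 4 thick ascending limb markers reached 1 CPM. Of 6 proximal tubule markers, Lrp2 (293 counts) and Cubn (7) were detected, and the other 4, Slc34a1 and Slc5a2 among them, had 0 counts. Of 6 markers of stroma, endothelium and leukocytes, Col1a1 (10) and Acta2 (3) were detected, while Pecam1, Kdr, Ptprc and Lyz2 had 0 counts. The summed level of the DCT list was 66.3 to 94.1 CPM, that of the stroma, endothelium and leukocyte list 4.48 to 12.4 CPM, and that of the proximal tubule list 203 to 230 CPM, of which Lrp2 alone made up 198 to 224 CPM. The part of any mixture of cell types in the levels below was not tested.

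The 5 detected members were Tfcp2l1, Tfcp2, Ubp1, Tfap2a and Tfap2b, all 3 CP2 genes and 2 of the 4 AP-2 genes, while none of the 3 grainyhead genes was detected. The share of 5 in 10 is close to the 50.6% of protein-coding genes that were detected, so the number is not a result about the families. Together the 10 genes held 823 counts, 616 of them in the CP2 subfamily, 205 in the AP-2 genes and 2 in the grainyhead genes.

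**Figure D1:**
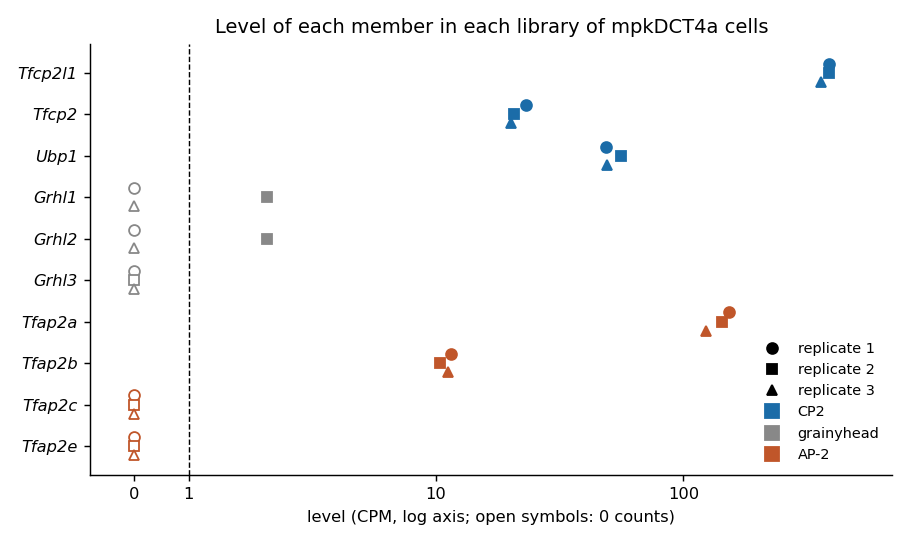
Level of each member in CPM on a log axis, 1 symbol per library (circle, square and triangle for replicates 1, 2 and 3), with libraries of 0 counts drawn as open symbols at the left and a dashed line at the detection threshold of 1 CPM. Tfcp2l1 lies between 361 and 389 CPM, Tfap2a between 123 and 152 CPM, and the grainyhead genes have a count in replicate 2 alone or in no library.

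The sequence before the start site was read for the members with an entry among the RefSeq promoters (GRCm38.p6), which were 8 of 10; Grhl2 and Tfap2c are named only. Windows of 250 bases upstream are shown for 4 members that span the range of levels and whose window holds no annotated exon. Tfcp2l1 was the highest member, Tfcp2 the lowest CP2 gene, Tfap2b the lowest detected member, and Grhl3 had 0 counts. They lie at chr1:118627695-118627944 (plus strand), chr15:100552009-100552258 (minus strand), chr1:19211804-19212053 (plus strand) and chr4:135573633-135573882 (minus strand). The RefSeq start of Tfap2b lies within the span that GENCODE gives the gene, so its window is intronic there. Each is written 5′ to 3′ on the gene's strand, and capitals mark the CG dinucleotides.
Tfcp2l1: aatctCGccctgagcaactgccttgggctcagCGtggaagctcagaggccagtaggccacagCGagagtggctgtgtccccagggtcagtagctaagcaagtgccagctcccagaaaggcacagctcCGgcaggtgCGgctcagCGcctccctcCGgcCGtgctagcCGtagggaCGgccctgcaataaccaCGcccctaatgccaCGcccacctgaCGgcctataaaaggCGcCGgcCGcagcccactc
Tfcp2: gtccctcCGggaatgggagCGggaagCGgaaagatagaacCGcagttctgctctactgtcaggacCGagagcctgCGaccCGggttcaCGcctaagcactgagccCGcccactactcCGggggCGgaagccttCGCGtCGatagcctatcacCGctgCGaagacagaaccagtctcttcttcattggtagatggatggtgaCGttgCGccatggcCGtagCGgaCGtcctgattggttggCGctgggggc
Tfap2b: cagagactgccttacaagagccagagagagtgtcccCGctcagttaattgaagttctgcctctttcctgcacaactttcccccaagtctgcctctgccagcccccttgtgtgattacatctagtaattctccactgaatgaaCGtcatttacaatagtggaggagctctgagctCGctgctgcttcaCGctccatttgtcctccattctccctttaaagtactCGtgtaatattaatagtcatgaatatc
Grhl3: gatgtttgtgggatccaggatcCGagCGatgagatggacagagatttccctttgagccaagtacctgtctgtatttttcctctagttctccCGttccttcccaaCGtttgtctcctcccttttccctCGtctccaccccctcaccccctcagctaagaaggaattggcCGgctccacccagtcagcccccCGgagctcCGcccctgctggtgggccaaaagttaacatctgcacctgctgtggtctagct

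Upstream CG content did not follow the order of the levels. The Tfcp2l1 window has 16 CG dinucleotides, the Tfcp2 window 22, the Tfap2b window 5 and the Grhl3 window 8, against a median of 6 over 32851 windows. Grhl1, which had 1 count, has 27 in the window of its first start site and 0 in that of its second. Tfap2e, which had 0 counts, has 15. The windows of Ubp1 have 33 and 39 and those of Tfap2a 10 and 10, with annotated exons in part of each. The AP-2 palindrome GCCNNNGGC, which reads the same on both strands, occurs upstream of 2 of the 8 members as the same bases, GCCTTGGGC. It begins 231 bases before the start of Tfcp2l1 and 82 bases before the first start of Grhl1, and 15.4% of the 27025 genes of the promoter table have it in a window. The grainyhead palindrome AACCGGTT is in none of the 11 windows of members and in 0.116% of all windows.

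Tfcp2l1 was the member with the most reads. The gene (ENSMUSG00000026380, GRCm38 chromosome 1, 118627945 to 118685168, plus strand) had 168, 188 and 161 counts in replicates 1, 2 and 3, or 388, 389 and 361 CPM. Replicate 3 was the lowest by a small margin, and the mean was 379 ± 16.1 CPM (SD, n = 3), with a 95% exact Poisson interval of 347 to 414 CPM on the pooled counts. On that scale it ranked 389 among 11122 detected protein-coding genes. Its annotated exons are long, at 9438 bases, and per length, in TPM (counts per exon length, scaled to the same sum in each library), it stood at 148 ± 5.59 TPM and at rank 1160.

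Ubp1, the CP2 factor also called LBP-1a, was intermediate. It had 21, 27 and 22 counts (ENSMUSG00000009741, chromosome 9, 113930934 to 113977202, plus strand), or 48.5, 55.9 and 49.3 CPM. Replicate 2 was the highest, and the mean was 51.2 ± 4.09 CPM, or 39.7 ± 3.48 TPM over 4757 exon bases. The median detected protein-coding gene stood at 39.6 CPM and 31.4 TPM, and Ubp1 was above both.

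Tfcp2, which encodes the founding CP2 protein (LSF), was the lowest of its subfamily. Its counts were 10, 10 and 9 (ENSMUSG00000009733, chromosome 15, 100498012 to 100552008, minus strand), or 23.1, 20.7 and 20.2 CPM. The libraries lay close together, with a mean of 21.3 ± 1.55 CPM and 9.73 ± 0.573 TPM. That is below the median detected protein-coding gene on both scales, and 33.3% of these genes were at or below its CPM.

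Transcripts of the grainyhead genes were at or under the limit of the depth. Grhl1, a factor of skin and desmosomal genes (ENSMUSG00000020656, chromosome 12, 24572283 to 24617391, plus strand), had 0, 1 and 0 counts. Grhl2, the member best known from kidney collecting duct and other simple epithelia (ENSMUSG00000022286, chromosome 15, 37233036 to 37363569, plus strand), also had 0, 1 and 0 counts. Both single counts fell in replicate 2, the deepest library. The mean of each was 0.690 ± 1.20 CPM, with an upper 95% Poisson bound of 4.09 CPM on the pooled count. Grhl3, which acts in epidermal barrier formation and neural tube closure (ENSMUSG00000037188, chromosome 4, 135541888 to 135573630, minus strand), had 0 counts in every library. For Grhl3, 0 counts allow a level of up to 2.91 TPM. In bulk RNA, fewer cells with a transcript and less of it per cell cannot be told apart. The threshold separates these genes by 1 read: Grhl1 and Grhl2 were each at 1.04 CPM without replicate 1 and at 1.03 CPM without replicate 3, just above it, and had 0 counts without replicate 2.

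Among the AP-2 genes, Tfap2a was the most abundant. It had 66, 69 and 55 counts (ENSMUSG00000021359, chromosome 13, 40715302 to 40738376, minus strand), or 152, 143 and 123 CPM. Replicate 3 was again the lowest, and the mean was 139 ± 14.8 CPM or 105 ± 10.1 TPM, at rank 1813 of 11122 genes per length. Tfap2b, a factor of kidney tubule development that is enriched in the distal nephron, had 5 counts in each library (ENSMUSG00000025927, chromosome 1, 19208914 to 19238576, plus strand). Its mean was 11.03 ± 0.609 CPM or 6.41 ± 0.303 TPM, but 15 counts in all leave a Poisson interval of 6.16 to 18.2 CPM.

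The remaining AP-2 members had no reads. Tfap2c, a factor of trophoblast, germ cells and mammary epithelium (ENSMUSG00000028640, chromosome 2, 172549593 to 172558622, plus strand), and Tfap2e, known from skin and the olfactory system (ENSMUSG00000042477, chromosome 4, 126716006 to 126736240, minus strand), had 0 counts in all libraries. So did Tfap2d, the fifth gene of the family, which is not among the members and lies 42568 bases from Tfap2b on the same strand. The limits per length were 2.20 TPM for Tfap2c, 3.89 TPM for Tfap2e and 4.15 TPM for Tfap2d. All 3 limits lie below the mean of Tfap2b, 6.41 TPM. That comparison leaves out the counting error of Tfap2b, which rests on 15 counts, so alone it does not settle their order per length.

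No difference between replicates beyond counting error was detected for these members. When the 3 counts of a gene were tested by chi-square against the library sizes, with Benjamini-Hochberg adjustment over 12473 genes, 0 of the 5 detected members were called, and 0 had an unadjusted p under 0.05. With the exact multinomial form in place of chi-square for genes of up to 300 counts, which leaves out Tfcp2l1, the adjusted test also called 0. Exact p-values without adjustment were computed for all 5 and follow below. Over all genes 0.0401% were called by chi-square, and 4.89% had an unadjusted p under 0.05. Exact multinomial p-values were 0.738 for Tfcp2l1, 0.946 for Tfcp2, 0.869 for Ubp1, 0.486 for Tfap2a and 1 for Tfap2b. In each of these 5 genes the coefficient of variation between libraries was below the one that counting error alone gives, for example 4.24% against 7.62% for Tfcp2l1 and 10.6% against 12.6% for Tfap2a. Separate cultures are not named for the replicates, so these p-values measure only the spread between the samples, which may be technical.

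Within the CP2 subfamily, Tfcp2l1 took most of the transcripts. Its share of the summed TPM was 75.9%, 74.2% and 74.8% in replicates 1, 2 and 3, that of Ubp1 18.8%, 21.2% and 20.3%, and that of Tfcp2 5.29%, 4.62% and 4.90%. The order was the same in every library and the shares did not overlap between genes. Within the AP-2 family, Tfap2a took 94.5%, 94.7% and 93.4% of the summed TPM and Tfap2b the rest.

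**Figure D2:**
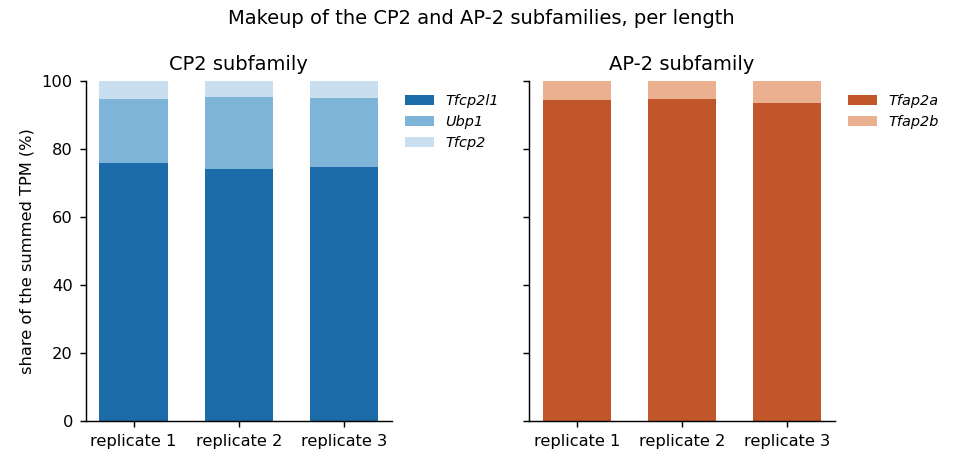
Share of the summed TPM of the CP2 genes (left) and of the AP-2 genes (right) taken by each gene, with 1 stacked bar per library. Tfcp2l1 takes 74.2% to 75.9% of the CP2 sum and Tfap2a 93.4% to 94.7% of the AP-2 sum, and members with 0 counts have no segment.

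All 12 pairs within the subfamilies were formed, and 8 could be compared, since in the other 4 both genes were at or under 3 counts. Tfcp2l1 had 7.39 times the counts of Ubp1 (95% exact binomial interval 5.75 to 9.62) and 3.72 times per length (2.90 to 4.85). It had 17.8 times the counts of Tfcp2 (12.3 to 26.9), or 15.2 times per length (10.5 to 23.0). Ubp1 exceeded Tfcp2 by 2.41 times in counts (1.55 to 3.86) and 4.09 times per length (2.62 to 6.54). These 3 intervals lie above equality on both scales, so the CP2 order held beyond counting error. Per length the distance depends on the gene model. The merged exons of Tfcp2 cover 8063 bases and its longest transcript 3302, and with the longest transcript in place of all exons, Tfcp2l1 exceeded Tfcp2 by 6.35 times and Ubp1 exceeded it by 1.99 times.

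For the AP-2 genes, Tfap2a had 12.7 times the counts of Tfap2b (7.49 to 23.1), or 16.4 times per length (9.68 to 29.8). Set against 3 counts, Tfap2a was at least 63.3-fold higher than Tfap2c and than Tfap2e in counts, or at least 47.5-fold and 26.9-fold per length. For Tfap2b the same bounds were at least 5.0-fold in counts and at least 2.90-fold and 1.64-fold per length. All these bounds leave out the counting error of Tfap2a and of Tfap2b themselves. In these last 4 pairs the lower gene had 0 counts, so their direction was fixed. The 4 pairs with counts in both genes had the same direction in all 3 libraries, each with an exact sign-flip permutation p of 0.25 (two-sided), also after adjustment over the 8 pairs. That is the smallest p that 3 libraries can give.

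**Figure D3:**
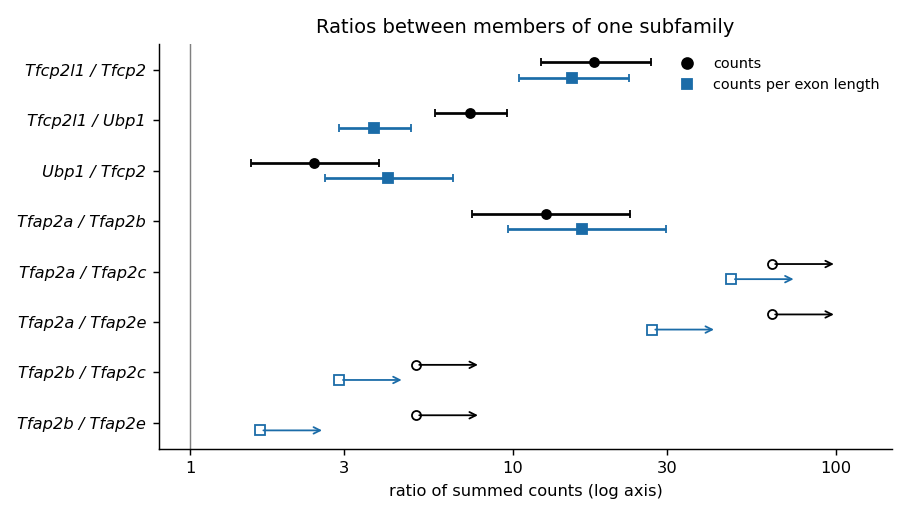
Ratio of the summed counts of 2 genes of one subfamily on a log axis, as counts (black circles) and per exon length (blue squares), with 95% exact binomial intervals. Open symbols with arrows are lower bounds against 3 counts, without the counting error of the higher gene. All 8 pairs lie above a ratio of 1, with Tfap2b against Tfap2e per length the nearest to it at 1.64.

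Tfcp2l1 and Tfap2a stood among the most abundant of the listed kidney and epithelial transcription factors. When the 10 members were ranked with 32 such factors per length, Tfcp2l1 came first at 148 ± 5.59 TPM and Tfap2a second at 105 ± 10.1 TPM. They were followed by the epithelial factor Klf5 (101 ± 17.8 TPM), the nephric lineage factor Pax8 (99.4 ± 12.6 TPM), Sall1 (93.7 ± 18.4 TPM) and Gata3 (69.5 ± 15.9 TPM). Tfap2a could not be told from Klf5 or Pax8 beyond counting error, with ratios per length of 1.04 (0.850 to 1.28) and 1.06 (0.867 to 1.29). Tfcp2l1 exceeded Pax8 by 1.496 times (1.28 to 1.76) and Tfap2a by 1.41 times (1.19 to 1.68). These margins depend on the gene model: per longest transcript Tfcp2l1 stood at 117 TPM against 139 TPM for Pax8, 122 TPM for Klf5 and 115 TPM for Tfap2a. Tfcp2l1 then took rank 3 and Tfap2a rank 4. Ubp1 was at rank 13 of 42 between Emx2 and Mecom, Tfcp2 at rank 17 between Ppargc1a and Lhx1, and Tfap2b at rank 19 between Lhx1 and Ehf. Of the 32 factors 19 were detected (59.4%, beside 50.6% of all protein-coding genes), and Irx3, Elf5 and Emx1 were among those with 0 counts. The ratios of this paragraph were chosen after the values were seen.

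**Figure D4:**
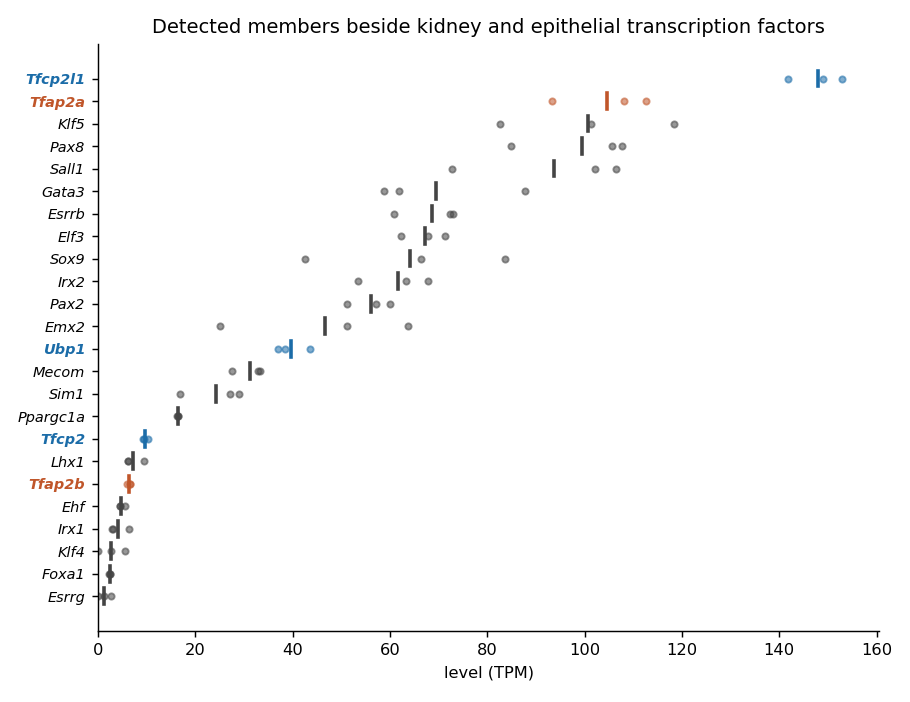
Level in TPM of the 5 detected members (coloured names) and the 19 detected kidney and epithelial transcription factors, with 1 point per library and a bar at the mean. The 3 points of Tfcp2l1, from 142 to 153 TPM, lie to the right of all others, while those of Tfap2a overlap with Klf5, Pax8 and Sall1.

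Genes that grainyhead factors are known to activate in epithelia were detected in part. The list has 15 genes, 9 of them detected (60%, beside 50.6% of all protein-coding genes). The number fell to 7 at a threshold of 5 CPM, with a count required in every library, or without replicate 2. The median of the list was 2.76 CPM, beside 1.46 CPM for all protein-coding genes, and its median gene, Epcam, had counts in replicate 2 alone. The tight junction gene Cldn3 (64.3 ± 10.4 TPM), the adherens junction gene Cdh1, which encodes E-cadherin (51.5 ± 17.0 TPM), the claudin gene Cldn4 (29.7 ± 9.94 TPM) and the protease inhibitor gene Spint1 (11.99 ± 11.01 TPM) were the highest. Rab25, Ovol1, Ovol2 and Esrp1 had 0 counts, as did Prom2 and Dsg1a. None of the 15 differed between replicates after adjustment, but Cdh1 (19, 41 and 28 counts), Epcam (0, 4 and 0) and Spint1 (8, 1 and 3) had unadjusted chi-square p-values of 0.0498, 0.0261 and 0.0261. Such a p under 0.05 was found in 4.89% of all tested genes, and at counts as low as those of Epcam it is only approximate.

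Mesenchymal genes, whose regulators oppose Grhl2 in other epithelia, were detected in part. Here 6 of 8 were detected (75%, beside 50.6% of all protein-coding genes), or 5 of 8 at a threshold of 5 CPM. The median of the list was 62.5 CPM. The filament gene Vim stood at 1205 ± 82.4 TPM, fibronectin (Fn1) at 452 ± 22.1 TPM, N-cadherin (Cdh2) at 120 ± 10.9 TPM and the repressor Zeb1 at 38.9 ± 3.498 TPM, whereas Snai2 had 0 counts and Snai1 had 1. Zeb1 had 43, 56 and 49 counts where Grhl2 had 0, 1 and 0. Per length the ratio was 124, and the single Grhl2 count, in replicate 2, leaves it anywhere from 21.9 to 4937. Cdh2 had 2.31 times the level of Cdh1 per length (1.82 to 2.95), and 3.72 times per longest transcript, so both cadherins were present. These 2 ratios were chosen after the values were seen.

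Partners of the AP-2 proteins were mostly present. Of 10 cofactor genes 8 were detected (80%, beside 50.6% of all protein-coding genes). They were led per length by Cited2 (123 ± 23.4 TPM) and Yeats4 (115 ± 9.18 TPM), followed by the acetyltransferases Crebbp (108 ± 8.68 TPM) and Ep300 (60.0 ± 3.93 TPM). Cited1 had 1 count and Cited4 had 0. Kctd1, which represses AP-2 activity, had 22, 8 and 18 counts, with replicate 2 the lowest (unadjusted chi-square p = 0.0177, adjusted p = 0.902 over all genes). Targets of AP-2 factors described in other tissues, Cdh1 among them, were detected in 7 of 13 cases (53.8%, close to the 50.6% of all protein-coding genes), and the median of the list was 63.8 CPM. They included the keratin gene Krt18 (1075 ± 35.2 TPM), the peroxidase gene Gpx1 (493 ± 67.2 TPM), the receptor gene Egfr (88.8 ± 15.4 TPM) and the cell cycle inhibitor gene Cdkn1a (82.7 ± 7.74 TPM). Egfr, at 129, 105 and 136 counts, was also lowest in replicate 2 (unadjusted chi-square p = 0.0175, adjusted p = 0.902). Esr1, Igfbp5, Kit and Ret had 0 counts, as did Krt14.

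Genes that work with the CP2 factors were also detected for the most part. Of 7 partners and targets of Tfcp2 and its relatives 6 were detected (85.7%, beside 50.6% of all protein-coding genes). Among them were the secreted phosphoprotein gene Spp1 (647 ± 70.9 TPM), the partner Yy1 (97.8 ± 9.64 TPM), the thymidylate synthase gene Tyms (63.0 ± 2.92 TPM) and the Polycomb ligase gene Rnf2 (52.5 ± 7.18 TPM), while Mmp9 had 0 counts. The genes that act with Tfcp2l1 in naive pluripotency had a median of 2.95 CPM. Of the 12, 8 were detected (66.7%), or 5 of 12 at a threshold of 5 CPM. The signalling part of this list was represented by the receptor subunit gene Il6st (177 ± 11.5 TPM) and Stat3 (42.6 ± 1.15 TPM), and the transcription factors by Klf5 and by Esrrb (68.7 ± 6.80 TPM). Nanog, Pou5f1, Sox2 and Tbx3 had 0 counts. Tfcp2l1 exceeded Esrrb by 2.15 times per length (1.79 to 2.59), but by 1.56 times per longest transcript. This ratio was chosen after the values were seen.

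Among collecting duct genes linked to Tfcp2l1, 5 of 12 were detected (41.7%, beside 50.6% of all protein-coding genes), and the median of the list was 0.345 CPM. The Notch pathway genes Notch2 (138 ± 6.36 TPM), Jag1 (76.7 ± 5.84 TPM), Notch1 (42.7 ± 4.53 TPM) and Hes1 (35.6 ± 13.3 TPM) were the highest, and the proton pump subunit gene Atp6v0a4 followed with 12 counts. The intercalated cell genes Foxi1, Atp6v1b1, Slc4a1 and Slc26a4 had 0 counts, as did Aqp2 and Kit. Of 7 distal nephron genes linked to Tfap2b 3 were detected (42.9%), namely Wnk4 (40.0 ± 9.56 TPM), Kcnj16 (28.7 ± 6.98 TPM) and Kcnj10 (4.54 ± 1.66 TPM). Slc12a3, Kcnj1, Ptger3 and Calb1 had 0 counts.

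**Figure D5:**
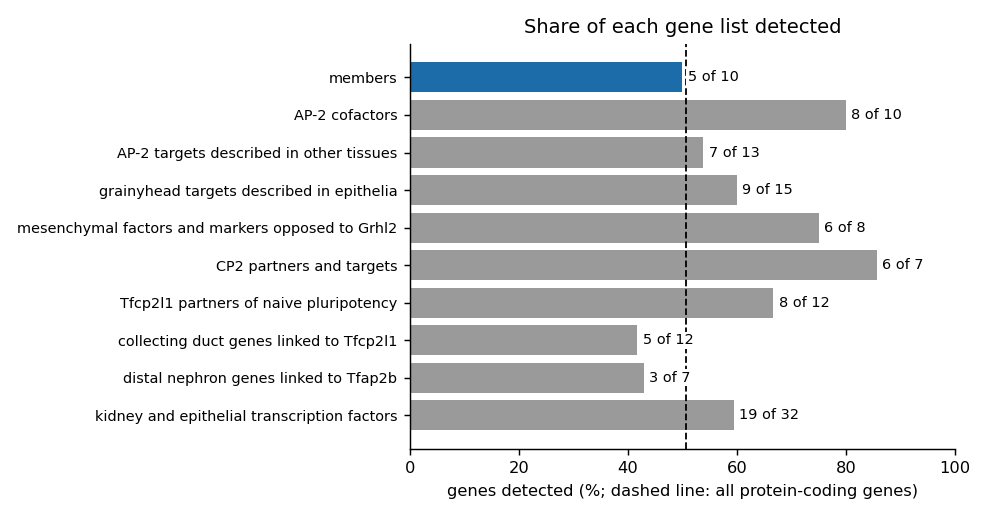
Share of the genes of each list that reached a mean level of 1 CPM, with the number of genes at each bar and a dashed line at the 50.6% of all protein-coding genes. The members lie at the line, the CP2 partners and targets (6 of 7) and AP-2 cofactors (8 of 10) above it, and the collecting duct (5 of 12) and distal nephron (3 of 7) genes below it. The lists are small, and their distance from the line was not tested.

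Levels of the genes next to the members ranged from 0 to 218 CPM. On both sides of the 10 members, 14 of 20 nearest protein-coding genes were detected, where 50.6% of all protein-coding genes were. Clasp1, 15267 bases from Tfcp2l1, had 67, 71 and 70 counts, and Gli2 on its other side had 1. Members with 0 or 1 counts also had detected neighbours: Zfp706 beside Grhl2 had 78, 78 and 83 counts, Klf11 beside Grhl1 had 35, 34 and 27, and Psmb2 beside Tfap2e had 34, 30 and 22. Pkhd1, the polycystic kidney disease gene that follows Tfap2b at 819203 bases, had 94, 87 and 115 counts, whereas Tfap2d on the other side had 0.

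Sequence shared with other genes was limited. Of the 50-base stretches in their transcripts, none occurs in a transcript of another member, and the coding sequences within a subfamily share 64.7% to 71.5% of aligned bases. Stretches shared with any other gene made up 0.927% for Tfcp2l1, 6.50% for Tfcp2, 10.6% for Ubp1 and 10.2% for Tfap2a, and 0% for Grhl1, Grhl3, Tfap2c and Tfap2e. Most of those of Ubp1 lie in Fbxl2 on the opposite strand (9 counts), and most of those of Tfap2a in Gm26688, 1 of 3 genes annotated on its opposite strand that held 5 counts in all. No source used here gives the strand setting of the counting, so reads from these overlaps may be assigned to either gene or left out.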

How the data were processed

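Total RNA (500 ng) from 3 mpkDCT4a libraries was depleted of ribosomal RNA and made into libraries of about 300 bp fragments, per the labels. The deposited file holds raw counts per Ensembl gene. The submitters' processing notes name STAR, HTSeq and the build mm10; their versions, and the strand setting, are not stated there. Symbols and exon lengths came from GENCODE M21 (55227 of 55487 identifiers matched, and the rest held 0.0230% of counts).

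Library totals (436983, 482418 and 443192 counts) were multiplied by TMM factors (edgeR 4.0.16, R 4.3.3) to give CPM, and TPM used the merged exon length. The replicate test covered every gene whose mean reached 1 CPM at an adjusted p of 0.05. For pairs, log2 ratios of CPM + 0.5 in each library entered an exact sign-flip permutation test. Intervals (95%) and limits (3 counts) cover counting error only. The promoter windows are from RefSeq; coding sequences, not proteins, were aligned. Python 3.11.15 with scipy 1.17.1, pandas 2.3.3, numpy 2.4.6 and matplotlib 3.10.9 did the rest. Alternatives were DESeq2 1.42.0 size factors, unscaled totals, other thresholds, pseudocounts and lengths, and leaving out each replicate. Another was an exact multinomial test for genes of up to 300 counts.

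The members and lists were chosen with earlier results of these data known. The rule for names took all members, overlapping and neighbouring genes, all DCT markers and, per list, the 4 highest detected genes by TPM and up to 4 without counts. Prom2, Dsg1a, Epcam, Snai1, Cited1, Kctd1, Krt14, Aqp2, Atp6v0a4 and the factors next to a member in rank were named after their values were seen. A few genes of these lists are not reported here and were left out of the list counts.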

Additional observations from a re-analysis of the deposited data

How the results depend on the processing

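No paired analysis was possible because the series has 1 group. The count of 5 detected members was the same with DESeq2 size factors, with library totals, at a threshold of 5 CPM and when a count in every library was required. It was 7 without replicate 1 or without replicate 3, through 1 count each of Grhl1 and Grhl2, and 5 without replicate 2. No detected member differed between replicates under any of 8 alternatives, where the lowest adjusted chi-square or exact p was 0.731. The 4 pairs with counts in both genes kept their direction in every library per length. Their ratios of summed counts also stayed above 1 per longest transcript, the lowest at 1.99 for Ubp1 to Tfcp2. The other alternatives tried for the pairs could not have turned a direction. The share of Tfcp2l1 in the CP2 sum was 68.0% per longest transcript and 83.9% in counts not divided by length, and that of Tfap2a in the AP-2 sum was 95.5% and 92.6%, where the alternative lengths set the shift. Alternatives for list counts and for ratios per length were chosen after the data were seen. Of 105 list counts 6 moved, by over 1.5 times or, for the principal cell list, up from 0. The pluripotency list had 5 of 12 genes at 5 CPM or more, the stroma list 1 of 6 at that threshold or with a count in every library, and the principal cell list 1 or 2 of 6 when a replicate was left out. Per longest transcript Tfcp2l1 stood at 117 TPM, Tfcp2 at 18.5 TPM and Tfap2b at 5.39 TPM. Depth limits statements on Grhl1, Grhl2, Grhl3, Tfap2c and Tfap2e, which rest on 0 or 1 counts.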
